A study of Mus musculus with 32 samples.

Results

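Elk3, Arid5a, Grap, Ano6, Nupr1 and Trim16 are 6 genes of the 24411 in the count table of the CD11c-DTR transfer experiment, and each is also among the 24421 genes of the table that holds the CX3CR1-DTR experiment. They were chosen by their symbols because earlier results of these data had shown them to differ between macrophages that monocytes formed in the colon and in the ileum. The values that chose them are the levels in the graft, colon and ileum of the CD11c-DTR experiment, so those levels and the differences between the segments are given as a description and without a test. Tests are given for changes between days within a segment, a contrast that the choice did not use, although its libraries did enter the choice. They are also given for the CX3CR1-DTR libraries, which did not enter it. All 6 genes passed the filter on low values. Among the CD11c-DTR libraries Grap passed it through ileum, where it was high. Its colonic libraries of the fit, at 12.5 to 39.6 normalized reads, all lay below the filter level of 50. The list of names set no threshold of its own. The earlier results behind it may have used one, so how near a gene stood to a threshold is not known.

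Monocytes were transferred into mice whose gut macrophages had been ablated with diphtheria toxin (DTx), and their progeny were sorted from the gut on successive days and profiled by 3′-end RNA sequencing. Recipients of the first experiment were [CD11c-DTR > WT] bone marrow (BM) chimeras, in which a DTx receptor under the Itgax promoter (the Itgax-DTR/GFP transgene 57Lan, in C57BL/6J mice) sensitizes CD11c+ cells, which include cells other than gut macrophages. They received 18 ng/g DTx before the transfer and 9 ng/g after it, on repeated days. Recipients of the second experiment were, by the study's account, [CX3CR1-DTR > WT] BM chimeras, with the receptor under Cx3cr1. Their colonic cells were taken on day 14, a day that the labels do not state. All groups share the DTx treatment except the graft, which was sampled before transfer. The graft libraries are labelled as blood, whereas the methods describe BM monocytes of Cx3cr1-gfp donors. Gut cells carry the label CD45+ CD11b+ CD64+ Ly6C- MHCII+, whereas the methods describe graft-derived cells taken by the donor's CD45.1 and GFP, and the titles of the CX3CR1-DTR libraries name GFP. Tissue was digested for 40 min with collagenase for colon and 20 min for ileum, so that digestion and segment cannot be told apart. Labels give neither the age of the animals nor whether a library came from 1 animal or a pool, so the tests measure the spread between libraries. The groups are the graft (3 libraries), colon on day 4 (3), day 8 (3, with a 4th left out) and day 12 (4), ileum on days 4, 8 and 12 (4 each) and CX3CR1-DTR colon (6, of which the study may have used fewer, and it is not clear which).

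Label dates of the CD11c-DTR libraries fall into 3 periods, each taken here as 1 transfer, though no label names a transfer. The exception is ileum day 8 replicate 2, whose date precedes all transfers. It was taken as a slip in the year that puts it in transfer 3. Ileum day 4 replicates 2 and 3 carry a label date in October and belong to transfer 1, and replicates 1 and 4 carry one in November and belong to transfer 2. Colon day 4 holds libraries of transfers 2 and 3 only. Colon day 8 replicate 1, of transfer 1, is a library that the study's source data do not contain, and it is given apart. Reads on genes ranged from 591817 to 5228664 in the CD11c-DTR libraries and from 1223772 to 4218027 in the CX3CR1-DTR libraries. Levels are normalized reads, that is counts per 10000000 mapped reads, of which a single read makes up between 1.17 and 9.22. They count 3′ ends, so they compare 1 gene between libraries and not a gene with another. Unless given per marker read, log2 differences and changes come from the edgeR fit, which scales libraries by TMM and not by mapped reads. They can therefore differ in size, and even in sign, from ratios of the levels. For Nupr1 from the graft to ileum day 4 the fit gave 0.28, while the mean level went from 1095 to 988. In such bulk samples, fewer cells that express a gene and less RNA of it per cell cannot be told apart.

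Elk3 (Net) is a ternary complex factor of the ETS family that works with serum response factor and can repress or activate its targets. Arid5a binds the 3′ end of Il6 mRNA and other inflammatory transcripts and stabilizes them, against the decay that regnase-1 brings about. Grap is an adaptor of the GRB2 family, with an SH2 and SH3 domains, that couples receptors to RAS signalling and is known best from lymphocytes. Ano6 (TMEM16F) is a calcium-activated scramblase that exposes phosphatidylserine on the cell surface. Nupr1 is a small nuclear protein induced by amino acid and endoplasmic reticulum stress downstream of ATF4. Trim16 is a tripartite motif protein that joins galectin-3 in the response to damaged lysosomes and takes part in autophagy and in the NRF2 pathway. In mm9, the build of the tables, Elk3 lies at chr10:92710161-92773904 on the minus strand, Arid5a at chr1:36364578-36380874 on the plus strand and Grap at chr11:61466823-61486279 on the plus strand. Ano6 lies at chr15:95621274-95805903 and Trim16 at chr11:62633755-62656450, both on the plus strand, and Nupr1 at chr7:133766760-133768984 on the minus strand. These spans are those of the CD11c-DTR count table, where reads were counted on exons and no other gene overlapped them. Grap and Trim16 share a chromosome with 1147476 bases and 22 genes between them.

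Promoters are shown for 4 of the 6 genes, those matched to an entry of the RefSeq promoter set on GRCm38.p6 used here. They run from 250 bases before the start of transcription to 50 after it. They are shown because 3 of these genes (Elk3, Arid5a, Ano6) were lower in colon and the 4th (Nupr1) was higher. Grap and Trim16 were not matched. Capitals mark GGAA, the core that ETS factors such as ELK3 bind, and TGATGNAA, the composite element that ATF4 and C/EBP factors bind, each on either strand.
Elk3 (minus strand, chr10:93311110-93311409): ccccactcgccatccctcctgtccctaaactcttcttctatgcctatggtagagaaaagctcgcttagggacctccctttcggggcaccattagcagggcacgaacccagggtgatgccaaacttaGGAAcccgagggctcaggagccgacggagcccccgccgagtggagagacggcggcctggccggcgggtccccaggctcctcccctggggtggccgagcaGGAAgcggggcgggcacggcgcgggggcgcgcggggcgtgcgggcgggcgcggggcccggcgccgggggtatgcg
Arid5a (plus strand, chr1:36307483-36307782): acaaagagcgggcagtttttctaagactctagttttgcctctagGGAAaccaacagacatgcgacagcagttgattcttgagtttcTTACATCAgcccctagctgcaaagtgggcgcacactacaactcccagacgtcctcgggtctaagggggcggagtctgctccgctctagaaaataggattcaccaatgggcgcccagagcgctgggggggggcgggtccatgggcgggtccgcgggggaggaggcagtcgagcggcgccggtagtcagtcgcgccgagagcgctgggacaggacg
Ano6 (plus strand, chr15:95790593-95790892): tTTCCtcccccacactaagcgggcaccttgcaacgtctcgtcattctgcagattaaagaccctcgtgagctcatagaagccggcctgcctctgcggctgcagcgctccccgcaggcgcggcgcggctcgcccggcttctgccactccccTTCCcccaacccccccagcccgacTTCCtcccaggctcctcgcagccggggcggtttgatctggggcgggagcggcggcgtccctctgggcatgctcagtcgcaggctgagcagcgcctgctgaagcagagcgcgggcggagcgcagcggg
Nupr1 (minus strand, chr7:126625421-126625720): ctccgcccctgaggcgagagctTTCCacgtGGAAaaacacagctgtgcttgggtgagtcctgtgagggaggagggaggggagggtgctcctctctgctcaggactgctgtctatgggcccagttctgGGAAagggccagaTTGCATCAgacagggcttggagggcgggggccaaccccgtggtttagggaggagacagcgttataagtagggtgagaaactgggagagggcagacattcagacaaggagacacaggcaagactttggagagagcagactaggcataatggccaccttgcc
GGAA matched 2 times in Elk3, 1 time in Arid5a and 3 times each in Ano6 and Nupr1, and it is held by 96.0% of the 32544 different promoter sequences of this length. The longer ETS motif CCGGAA, held by 14.98% of them, was in none of the 4. TGATGNAA is held by 3.91% of all promoters and matched 1 time each in Nupr1 and Arid5a, which went opposite ways between the segments. The E-box CACGTG (7.17% of all) and TATAA (24.8% of all) were found in Nupr1 only among the 4, and the GC box GGGCGG (35.9% of all) in each of them. These matches describe letters and do not show binding.

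Libraries differed in their reads of cell type markers, also of cell types other than macrophages, and these differences run along the segments. The sum of 13 epithelial markers (Epcam, Krt8, Vil1 and others) was 104831 to 166476 normalized reads in the colonic libraries, 19602 to 50438 in ileum on days 8 and 12 and 36.8 to 58.9 in the graft, where 9 of the 13 were at or below 3 counts. On ileum day 4 it was 125274 and 129338 in transfer 1 but 28820 and 37259 in transfer 2. The sum of 10 pan-leukocyte markers (Ptprc, Coro1a, Tyrobp and others) was 2327 to 9485 in colon, 6818 to 49405 in ileum on days 8 and 12 and 111463 to 121153 in the graft. Of the 12 macrophage markers 11 were in the table, and their sum was 5051 to 26851 in colon and 12212 to 130730 in ileum, with none of the 11 at or below 3 counts in a gut group. B and plasma cell markers, 7 of 8 in the table, summed to 664 to 8485 in colon, 3336 and 4767 in ileum day 4 of transfer 1 and 16712 to 141922 in the other ileal libraries. All 7 genes of the labelled gate had group means above 3 counts in each gut group, among them Ly6c2, which the gate lists as negative and which was at 0 in a library of ileum day 4. Whether such marker reads came from other cells in the libraries was not tested, nor was the part of other cells in the levels of the 6 genes.

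Elk3 was lower in colon than in the graft and nearer the graft's level in ileum. It had 477, 559 and 622 normalized reads in the 3 graft libraries. In colon it had 66.3, 68.2 and 116 on day 4, 63.2, 81.0 and 107 on day 8, and 77.8, 106, 119 and 152 on day 12. Every colonic library thus lay below every graft library, on each day. In ileum on day 4 it had 81.1 and 147 in the libraries of transfer 1 and 421 and 512 in those of transfer 2. On day 8 it had 335, 347, 378 and 602, and on day 12 374, 421, 489 and 512. The ileal libraries of transfer 1 on day 4 lay within the colonic range of all days, and all others lay above it. In the edgeR fit the log2 difference of colon from ileum was -1.88 ± 0.43 (SE) on day 4, -2.63 ± 0.43 on day 8 and -2.09 ± 0.37 on day 12. From the graft to day 4 the log2 change was -2.39 ± 0.44 in colon and -0.50 ± 0.38 in ileum, where the median of all genes was 0.21 and 0.23. The mean level in ileum on day 4 was 290 normalized reads, against 553 in the graft. The order of the group means was graft, ileum day 12, day 8 and day 4, then colon day 12, day 8 and day 4, with overlap between neighbouring days within each segment.

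Arid5a followed nearly the same course. It had 497, 550 and 710 normalized reads in the graft. In colon it had 112, 113 and 151 on day 4, 70.2, 110 and 165 on day 8, and 111, 121, 181 and 257 on day 12. In ileum on day 4 it had 137 and 498 in transfer 1 and 449 and 462 in transfer 2. The low value belonged to replicate 2, the same library that was lowest for Elk3, while the other library of that transfer was the highest of the day. On day 8 the ileal libraries had 248, 325, 368 and 600, and on day 12 263, 398, 512 and 643. The lowest ileal values of days 8 and 12 were close to the highest colonic value of day 12. The log2 difference of colon from ileum was -1.70 ± 0.44 on day 4, -2.04 ± 0.44 on day 8 and -1.55 ± 0.38 on day 12. From the graft to day 4 the change in the fit was -1.89 ± 0.45 in colon and -0.18 ± 0.41 in ileum. The mean level in ileum on day 4 was 386 normalized reads, against 586 in the graft. Colon day 8 replicate 1 had 590, against at most 257 in the other colonic libraries. That library also had a macrophage marker sum of 98488, a pan-leukocyte sum of 32825 and an epithelial sum of 69199, each outside the range of the other colonic libraries. Its values for Elk3 (114), Grap (26.8), Ano6 (282), Nupr1 (1805) and Trim16 (376) lay within the colonic ranges.

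Grap differed from the other genes in that it was low in the graft too. It had 38.8, 44.9 and 63.0 normalized reads there, 12.5, 18.3 and 29.6 in colon on day 4, 22.2, 31.3 and 33.8 on day 8, and 15.6, 20.7, 29.2 and 39.6 on day 12. In ileum on day 4 it had 29.9 and 46.1 in transfer 1 and 278 and 281 in transfer 2. The libraries of transfer 1 were thus at the level of graft and colon, and those of transfer 2 were the highest of all. On day 8 it had 87.0, 126, 230 and 260, and on day 12 86.0, 174, 210 and 250. The log2 difference of colon from ileum was -3.08 ± 0.66 on day 4, -2.89 ± 0.62 on day 8 and -2.86 ± 0.55 on day 12. From the graft to day 4 the change was -0.98 ± 0.69 in colon and 2.10 ± 0.60 in ileum, but in ileum of transfer 1 alone it was -0.03. B and plasma cell, endothelial and T-cell markers were among those that moved with Grap between these transfers and between the segments. On ileum day 4, endothelial markers summed to 181 and 194 in transfer 1 and 2732 and 4847 in transfer 2. T-cell markers summed to 128 and 553 in transfer 1 and 763 and 1037 in transfer 2. The part of these cell types in the Grap values was not tested.

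Ano6 was lower in colon than in the graft and reached its highest level in ileum after day 4. It had 516, 644 and 705 normalized reads in the graft, 242, 267 and 352 in colon on day 4, 193, 249 and 277 on day 8, and 165, 270, 286 and 401 on day 12. In ileum on day 4 it had 188 and 387 in transfer 1 and 462 and 528 in transfer 2. On day 8 the ileal libraries had 624, 707, 716 and 827, and on day 12 582, 759, 763 and 967. All ileal libraries of days 8 and 12 lay above all colonic ones, whereas those of day 4 bridged the gap. The log2 difference of colon from ileum was -0.53 ± 0.30 on day 4, -1.90 ± 0.31 on day 8 and -1.57 ± 0.27 on day 12.

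Nupr1 had the opposite direction, higher in colon than in the graft and lower in ileum from day 8. It had 1027, 1053 and 1205 normalized reads in the graft, 2160, 2509 and 2591 in colon on day 4, 1673, 1852 and 2087 on day 8, and 1871, 2595, 2672 and 3112 on day 12. Every colonic library exceeded every graft library. In ileum on day 4 it had 857 and 1988 in transfer 1 and 442 and 663 in transfer 2, and it had 380, 502, 537 and 708 on day 8 and 532, 538, 705 and 789 on day 12. Replicate 2 of ileum day 4, the library with the lowest Elk3, lay inside the colonic range, and every ileal library of days 8 and 12 lay below the graft. The log2 difference of colon from ileum was 1.202 ± 0.33 on day 4, 1.51 ± 0.33 on day 8 and 1.91 ± 0.32 on day 12.

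Trim16 had the same direction as Nupr1. It had 206, 209 and 236 normalized reads in the graft, 230, 302 and 385 in colon on day 4, 378, 405 and 570 on day 8, and 229, 300, 311 and 320 on day 12. In ileum on day 4 it had 184 and 416 in transfer 1 and 64.2 and 92.4 in transfer 2. Later ileal libraries had 56.9, 66.9, 71.4 and 115 on day 8 and 45.3, 49.4, 59.1 and 94.0 on day 12. Those 8 libraries all lay below the graft and below every colonic library. The log2 difference of colon from ileum was 0.53 ± 0.39 on day 4, 2.27 ± 0.40 on day 8 and 2.12 ± 0.39 on day 12. With ileum day 4 of transfer 1 alone the day 4 difference was -0.15, and with transfer 2 alone it was 1.85. Across all genes tested, 16.7% were called higher and 18.3% lower in colon than in ileum on day 8, and 15.3% and 17.2% on day 12. Since these contrasts chose the 6 genes, nothing is read from their falling in those shares.

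**Figure D1:**
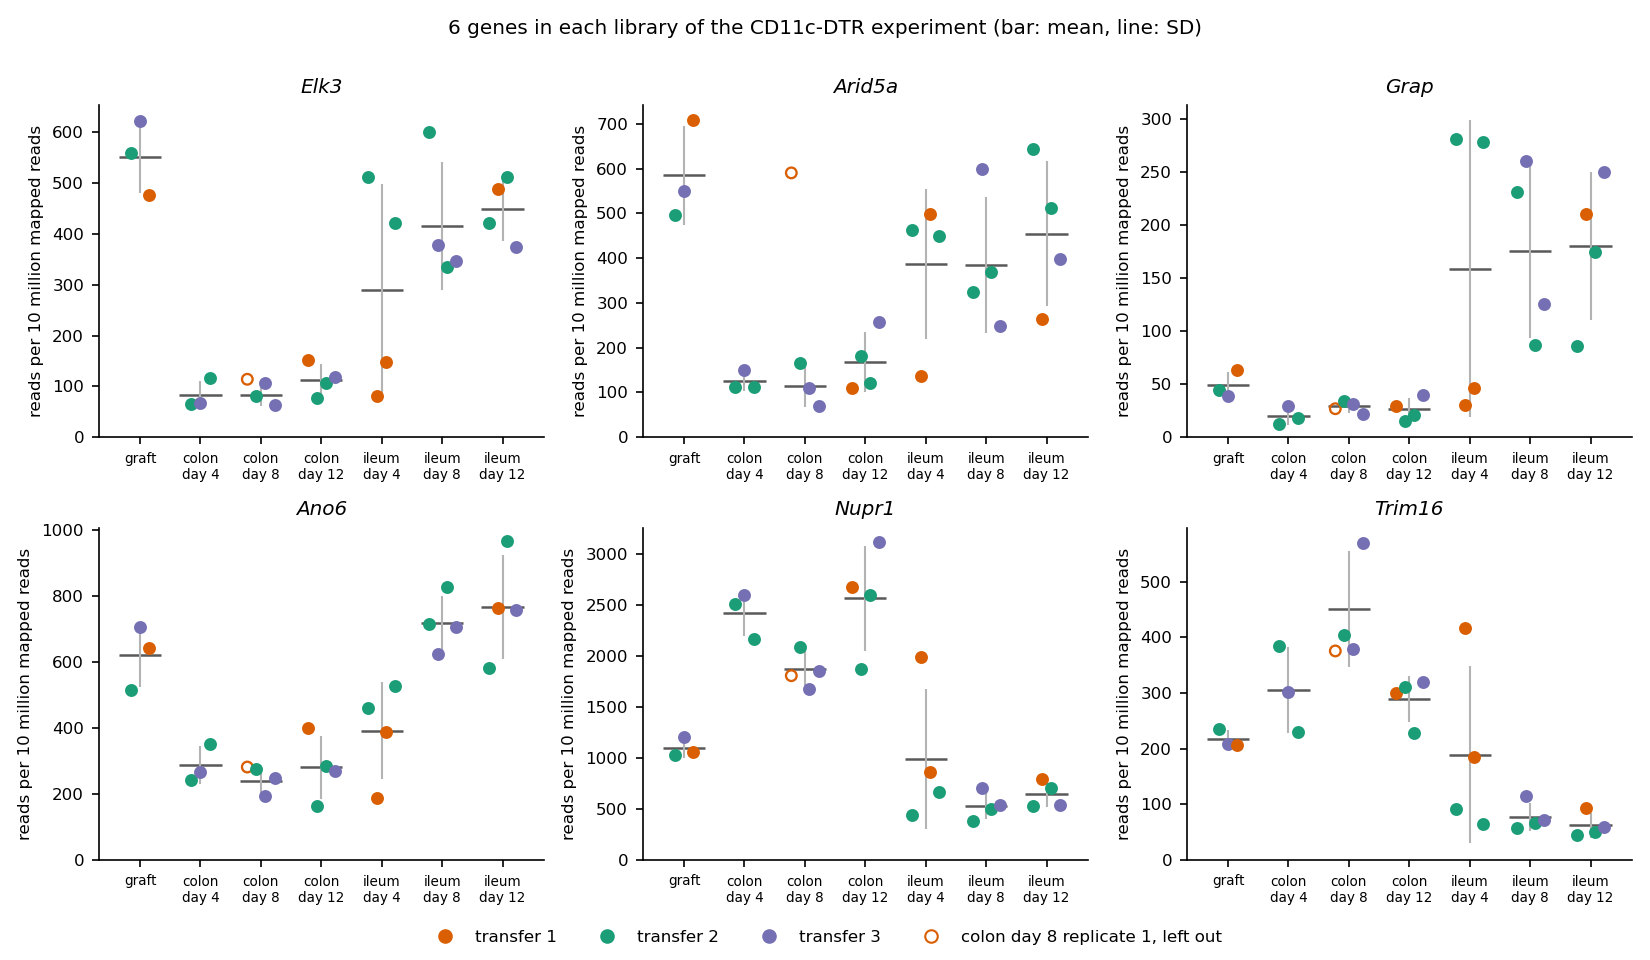
Normalized reads (per 10000000 mapped reads, linear axis from 0) of the 6 genes in each library, by group, with colours for the 3 transfers, the mean as a bar and the SD as a line. Ileum day 4 libraries of transfer 1 (orange) lie at or near the colonic level for Elk3 (81.1 and 147) and Grap (29.9 and 46.1), and those of transfer 2 (green) at the later ileal level.

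Levels were also expressed per 1000 reads of a marker list, an alternative chosen after seeing the data. Elk3 had 8.21 to 38.7 reads per 1000 pan-leukocyte reads in the 10 colonic libraries and 8.52 to 50.9 in the 12 ileal libraries. The ranges of the segments covered each other almost fully on this scale, and the log2 difference of the means was 0.41, -0.37 and 0.35 on days 4, 8 and 12. Arid5a had 19.0 to 79.8 per 1000 in colon and 11.8 to 38.4 in ileum, and its difference was 0.41, 0.17 and 0.94. For Ano6 it was 1.59, 0.27 and 0.85, with 17.4 to 104.4 in colon and 11.8 to 103.7 in ileum. Grap kept its direction, with 1.64 to 12.3 in colon and 1.74 to 18.4 in ileum and differences of -0.79, -0.56 and -0.52, though its ranges overlapped as well. Per pan-leukocyte read, 3 of the 4 genes that were lower in colon per mapped read were thus not lower there on days 4 and 12. Graft libraries held fewer reads of all 4 per 1000 pan-leukocyte reads than any gut library of the fit, for example 3.94 to 5.21 for Elk3.

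Nupr1 had 10.9 to 25.2 reads per 1000 epithelial marker reads in colon (median 17.5) and 6.84 to 27.14 in ileum (median 15.9). Trim16 had 1.38 to 3.93 in colon (median 2.53) and 1.01 to 3.22 in ileum (median 2.12). On this scale the log2 difference of colon from ileum on days 4, 8 and 12 was 0.21, -0.32 and 0.14 for Nupr1 and -0.24, 0.41 and 0.41 for Trim16. The segments overlapped on every day for both genes. Both genes were detected in the graft, where the epithelial markers were nearly absent. The part of epithelial cells in the gut values of Nupr1 and Trim16 was not tested. Per pan-leukocyte read the difference grew instead, to 3.68 for Nupr1 and 4.61 for Trim16 on day 8.

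**Figure D2:**
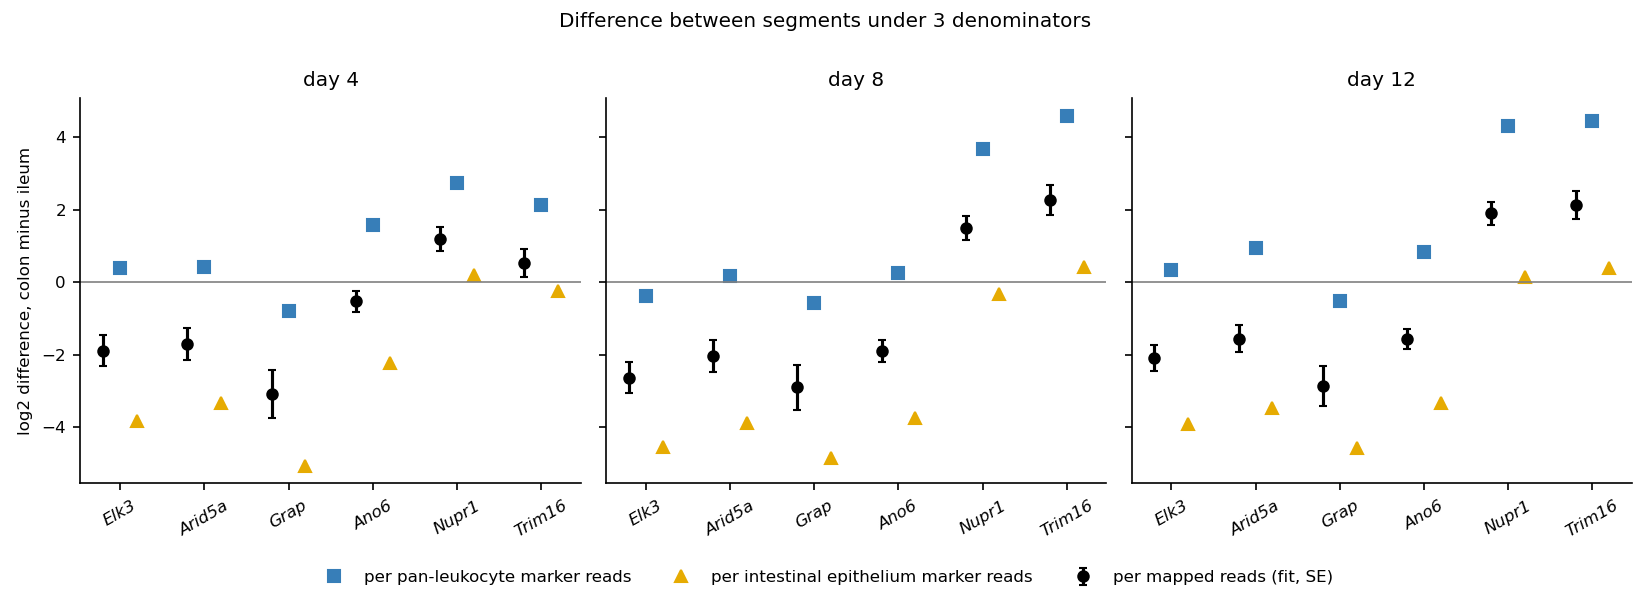
Log2 difference of colon from ileum on days 4, 8 and 12 for each gene. Black points are the edgeR fit with SE, which scales libraries by TMM, although the legend reads per mapped reads. Blue squares are per pan-leukocyte marker reads and yellow triangles per epithelial marker reads. Elk3 on day 12 is at -2.09 in the fit and at 0.35 per pan-leukocyte reads. Nupr1 on day 8 is at 1.51 in the fit and at -0.32 per epithelial reads.

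**Figure D3:**
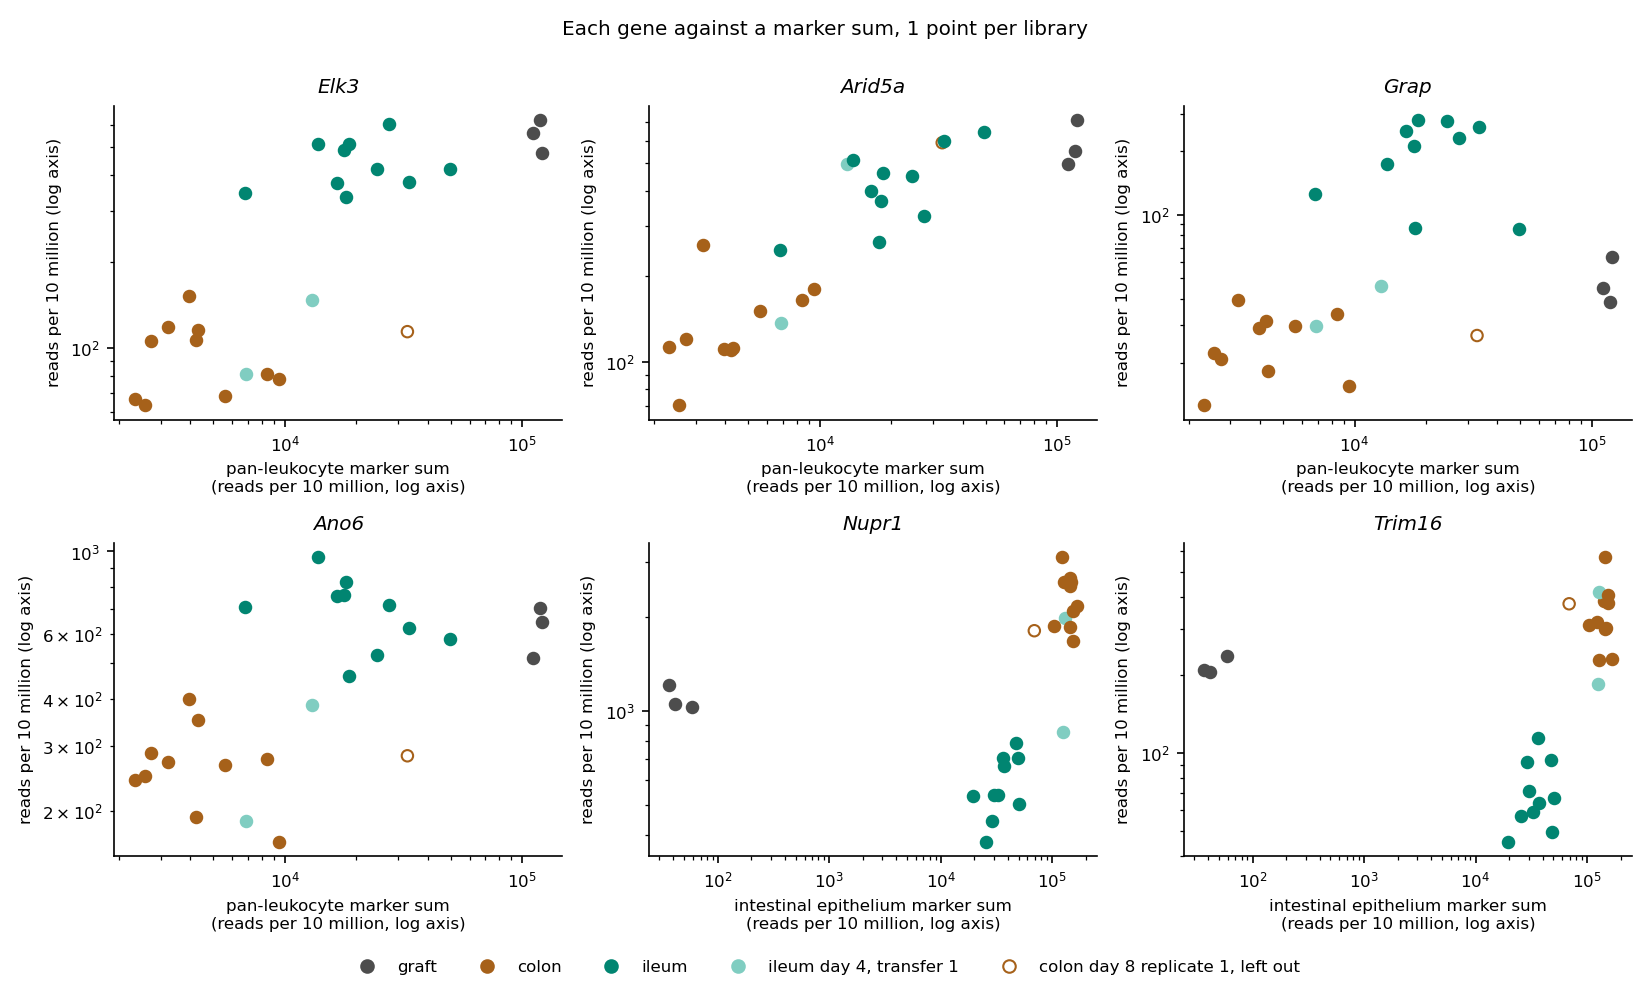
Each gene (y axis, normalized reads) against the pan-leukocyte marker sum (Elk3, Arid5a, Grap, Ano6) or the epithelial marker sum (Nupr1, Trim16), with 1 point per library and log axes. Colonic libraries of the fit lie at 2327 to 9485 pan-leukocyte reads, and the ileum day 4 libraries of transfer 1 (pale) at 125274 and 129338 epithelial reads, among the colonic ones. The open point is colon day 8 replicate 1, left out of the fit, at 32825 pan-leukocyte and 69199 epithelial reads.

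Changes between days were tested within each segment. The choice of genes rested on differences between the segments and not on these contrasts. The same libraries enter both, so these tests are not fully independent of the choice. In colon none of the 6 genes was called from day 4 to day 8 or from day 8 to day 12, where the background was 0% and 0% of 11842 genes. The adjusted p of edgeR's quasi-likelihood test with Benjamini-Hochberg adjustment was 1 for all 6 in both steps. At an unadjusted p under 0.05 there were 204 and 329 genes, and DESeq2 and limma called 0 genes as well in either step. The widest approximate 95% interval was that of Grap from day 4 to day 8, -0.95 to 1.84 on the log2 scale, which spans changes of several-fold. That of Elk3 from day 4 to day 8 was -0.97 to 0.78. Grap had 12.5 to 39.6 normalized reads in the colonic libraries, below the filter level of 50, so its colonic tests rest on few reads. In ileum from day 8 to day 12 none was called either, with a background of 0%, 796 genes at an unadjusted p under 0.05 and 0 calls by DESeq2 and limma.

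From day 4 to day 8 in ileum, Ano6 rose, the only call among the 6, where 5.13% of genes were called (85 higher and 523 lower). Its mean went from 391 to 718 normalized reads, higher in 4 of 4 libraries and without overlap, a log2 change of 1.03 ± 0.28 (edgeR adjusted p = 0.0312). Trim16 had a log2 change of -1.24 ± 0.39 (adjusted p = 0.0686 in edgeR), Nupr1 of -0.77 ± 0.31 (adjusted p = 0.153) and Elk3 of 0.65 ± 0.36 (adjusted p = 0.311). Grap and Arid5a changed by 0.26 ± 0.51 and 0.09 ± 0.38. This step sets ileum day 4 of transfers 1 and 2 against day 8 of transfers 2 and 3, and its result depended on which transfer stood for day 4. With transfer 1 alone on day 4, 5 genes were called, among them Elk3 at 2.05 and Grap at 2.40 upwards and Trim16 at -1.92 (edgeR adjusted p = 0.000241, 0.00401 and 0.000129). With transfer 2 alone on day 4 none was called, and Elk3 was at -0.01, Grap at -0.53, Trim16 at 0.08 and Ano6 at 0.73. The Ano6 call was also lost without ileum day 4 replicate 2 (0.77, adjusted p = 0.183 in edgeR) or replicate 3 (1.08, 0.0509), and without day 8 replicate 3 (0.99, 0.0604) or replicate 4 (0.92, 0.0906). In a fit with the transfer as a replicate block its adjusted p was 0.217.

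The CX3CR1-DTR colonic libraries form a second set of colonic cells, with another recipient, day and sequencing table, which cannot be told apart from one another. The graft and CD11c-DTR libraries they are set against are those that served to choose the genes, so only the CX3CR1-DTR side of each test is independent of the choice, and a difference from ileum or graft is favoured by it. Levels here are counts per 10000000 reads on genes. Elk3 had a median of 127 (54.6 to 278), against 132 to 222 in CD11c-DTR colon on day 12, 698 to 965 in ileum on day 12 and 694 to 882 in the graft. It was lower than in the graft by a log2 difference of -2.26 ± 0.37 (edgeR adjusted p = 2.17e-05) and lower than in ileum by -2.40 ± 0.35 (edgeR adjusted p = 6.93e-06), in 6 of 6 libraries each. Against colon on day 12 the difference was -0.30 ± 0.36, with an interval that held 0. Arid5a had a median of 223 (137 to 498), with -1.49 ± 0.40 against the graft and -1.59 ± 0.37 against ileum (edgeR adjusted p = 0.00241 and 0.000894), and its highest library overlapped the ileal range. Against colon on day 12 it differed by -0.02 ± 0.38. Arid5a was counted on another transcript in each experiment, with 5784 exon bases for CD11c-DTR and 5518 for CX3CR1-DTR. Whether this moved its differences was not tested. Ano6 had a median of 373 (351 to 498), with -0.87 ± 0.23 against the graft, -1.61 ± 0.21 against ileum and -0.03 ± 0.22 against colon (edgeR adjusted p = 0.00221, 2.21e-06 and 0.904).

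Grap had a median of 44.6 (21.3 to 147) in CX3CR1-DTR colon. It was below ileum on day 12 by a log2 difference of -2.43 ± 0.44 (edgeR adjusted p = 8.76e-05), with 6 of 6 libraries below the ileal mean and the highest within the ileal range. Its difference was -0.10 ± 0.51 from the graft and 0.43 ± 0.49 from colon on day 12, neither of them called. Nupr1 was highest in these libraries, with a median of 7316 (5775 to 7836) against 3177 to 5530 in colon on day 12, 882 to 1327 in ileum and 1495 to 1709 in the graft. The groups did not overlap, and the log2 difference was 0.88 ± 0.19 from colon, 2.78 ± 0.21 from ileum and 2.44 ± 0.23 from the graft (edgeR adjusted p = 0.000619, 3.52e-09 and 2.85e-08). Trim16 had a median of 253 (24.5 to 378), above ileum in 5 of 6 libraries by 1.34 ± 0.39 (edgeR adjusted p = 0.00475, but 0.0716 in limma) and below colon on day 12 in 6 of 6 libraries by -0.78 ± 0.35 (edgeR adjusted p = 0.0598). Against the graft it differed by -0.04 ± 0.39.

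In all, 4 of the 6 genes were called against the graft, 1 against CD11c-DTR colon and 6 against CD11c-DTR ileum, where the background was 74%, 62.7% and 72.6% of 12385 genes. Since the choice of genes rests on the graft, colon and ileum levels, nothing is read from these counts. CX3CR1-DTR library 1 stood apart, with the highest Elk3, Arid5a and Grap of its group and 3 counts of Trim16. Without it Trim16 differed from colon on day 12 by -0.55 ± 0.19 (edgeR adjusted p = 0.0179) and from ileum by 1.56 ± 0.22, and Elk3 from colon by -0.63 ± 0.29 (edgeR adjusted p = 0.0648). On the scale of reads on genes, epithelial markers summed to 201379 to 260923 in CX3CR1-DTR colon, 177954 to 226388 in CD11c-DTR colon and 32488 to 92406 in ileum on day 12. Pan-leukocyte markers summed to 2885 to 8637, 4887 to 16101 and 25929 to 81885, and B and plasma cell markers to 299 to 466, 972 to 11014 and 35160 to 283809. Their part in the differences of the 6 genes was not tested.

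**Figure D4:**
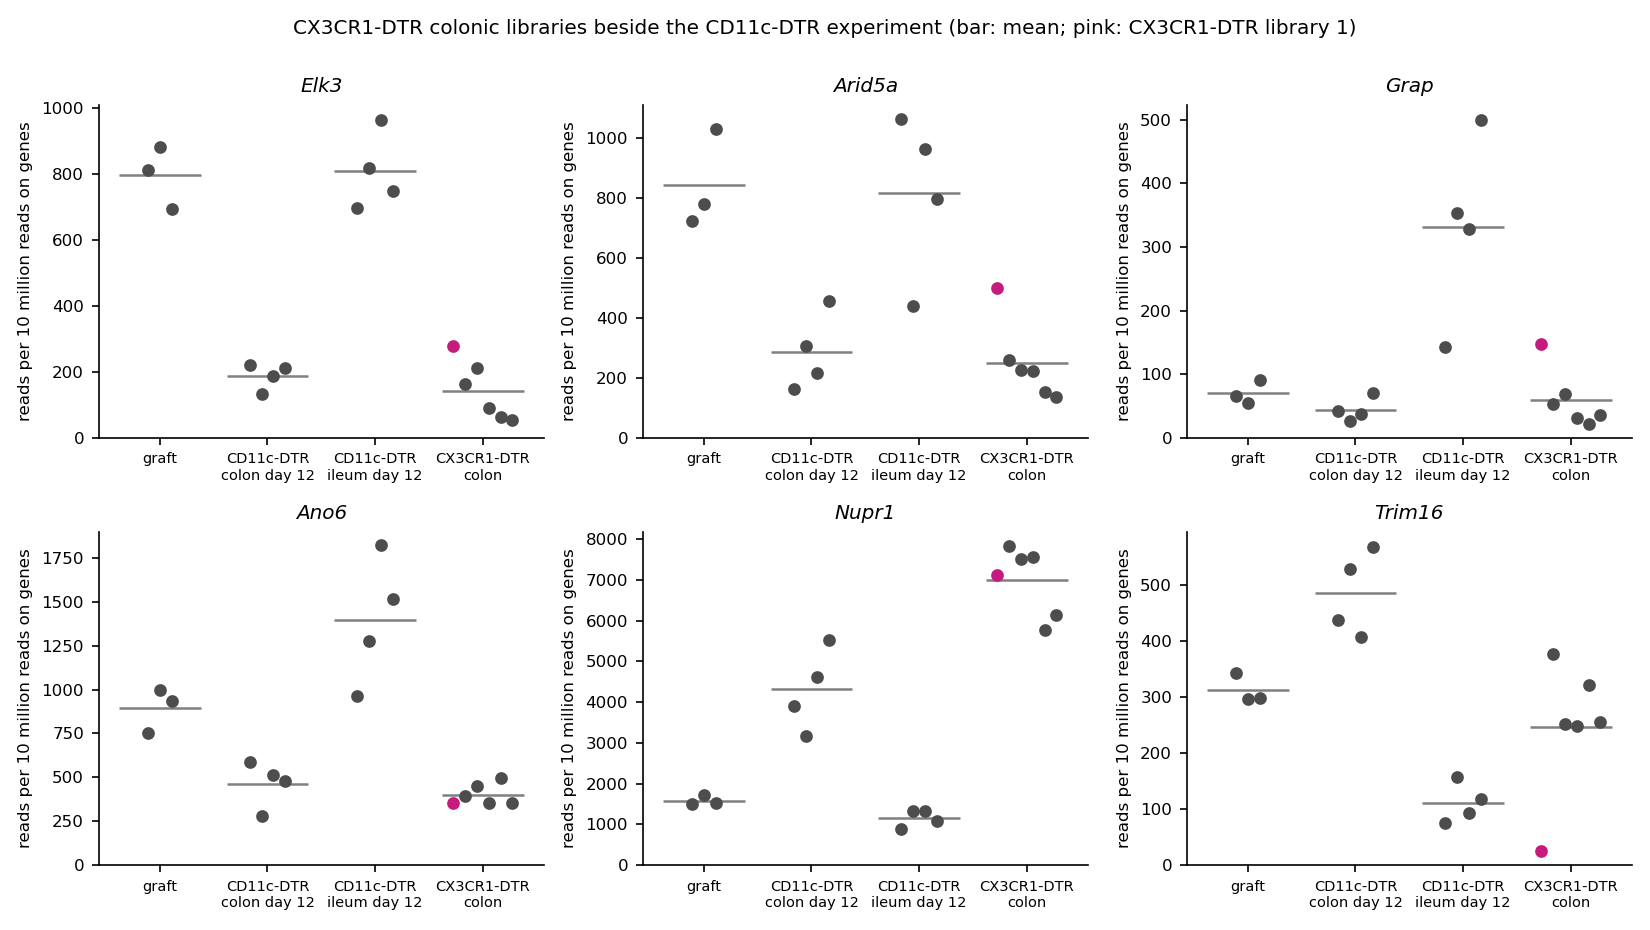
Counts per 10000000 reads on genes (linear axis from 0) of the 6 genes in the graft, in CD11c-DTR colon and ileum on day 12 and in CX3CR1-DTR colon, with the mean as a bar and CX3CR1-DTR library 1 in pink. Elk3 in CX3CR1-DTR colon (54.6 to 278) lies below all ileal libraries (698 to 965), and Nupr1 (5775 to 7836) above all other groups.

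Lists of relatives and partners of each gene, written with earlier results known, were counted between colon and ileum on days 8 and 12, where 11842 genes gave medians of -0.05 and -0.01 on the log2 scale. Of all genes 16.7% were called higher and 18.3% lower in colon on day 8, and 15.3% and 17.2% on day 12, and each count below stands against these shares. Of 19 tested ETS and serum response factor genes, 6 were lower and 0 higher in colon on each day, with medians of -0.50 and -0.61. Ets1, an ETS factor of lymphocytes and endothelium, had 69.4 ± 25.4 normalized reads (SD, n = 3) in colon and 494 ± 238 (n = 4) in ileum on day 8 (log2 difference -3.26 ± 0.68, edgeR adjusted p = 0.00116). Erg, an endothelial ETS factor, differed by -3.41 ± 0.80 and Spi1 (PU.1), the myeloid master regulator, by -2.10 ± 0.62 on day 8 (edgeR adjusted p = 0.00302 and 0.0116). Endothelial markers (6) summed to 258 to 1034 in colon and 1886 to 5004 in ileum on days 8 and 12. Spi1 had 2911 ± 365 in the graft (n = 3), whereas Erg was at 0 there.

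Of 16 tested ARID and Il6 mRNA regulators, 4 were lower in colon on day 8 and 5 on day 12, against 18.3% and 17.2% of all genes. Higher in colon were 0, against 16.7% and 15.3% of all genes. Arid3a, a DNA-binding relative of Arid5a, had 144 ± 94.8 normalized reads (SD, n = 4) in ileum and 34.2 ± 14.2 (n = 3) in colon on day 8 (log2 difference -2.21 ± 0.55, edgeR adjusted p = 0.00423). Arid3b and Arid5b were lower by -1.01 ± 0.37 and -0.98 ± 0.38 on that day (edgeR adjusted p = 0.0387 and 0.0467). Of 19 GRB2 adaptors and partners, 6 and 7 were lower on days 8 and 12, against 18.3% and 17.2% of all genes. On each day 2 were higher, against 16.7% and 15.3% of all genes. The lower ones were led by Lat (-4.43 ± 1.01), Grap2 (-3.04 ± 0.76) and Lat2 (-2.70 ± 0.66) on day 8 (edgeR adjusted p = 0.0023, 0.00432 and 0.0038), of which the first and second are known best from T cells. Lat2, an adaptor of B, mast and myeloid cells, was abundant in the monocytes before transfer, at 610 ± 72.5 normalized reads (SD over 3 libraries), and on day 8 averaged 26.2 in colon and 134 in ileum. T-cell markers (8) summed to 86.6 to 266 in colon and 602 to 1456 in ileum on days 8 and 12. Lat had 9.02 ± 3.38 normalized reads in colon on day 8, near the floor of 3 counts, against 169 ± 57.5 in ileum.

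Of 18 tested anoctamins, scramblases and flippases, 4 were higher and 2 lower in colon on day 8, against 16.7% and 18.3% of all genes. On day 12, 5 were higher and 3 lower, against 15.3% and 17.2% of all genes. Ano1, a calcium-activated chloride channel of epithelium and interstitial cells, had 1768 ± 434 normalized reads (SD, n = 3) in colon and 141 ± 21.4 (n = 4) in ileum on day 8 and was at 0 in the graft (log2 difference 3.36 ± 0.54, edgeR adjusted p = 0.000238). It therefore went opposite to Ano6. Plscr2 and P2rx7, the ATP-gated channel upstream of ANO6, were lower by -1.77 ± 0.59 and -1.65 ± 0.40 (edgeR adjusted p = 0.0242 and 0.00367). Of 16 integrated stress response and oxidative stress genes, 2 were higher and 3 lower in colon on day 8, and 1 and 2 on day 12, against 16.7% and 18.3% of all genes on day 8. Gclm, of glutathione synthesis, was higher by 1.21 ± 0.33 and Slc7a11, the cystine carrier, lower by -2.22 ± 0.72 on day 8 (edgeR adjusted p = 0.007 and 0.0203). Of 29 TRIM and autophagy genes, 1 was higher on each day and 5 and 7 were lower, against 18.3% and 17.2% of all genes lower. The higher gene was Lgals3, galectin-3, the partner of TRIM16, with 40417 ± 7889 normalized reads in colon (SD, n = 3) and 3785 ± 1100 in ileum (n = 4) on day 8 and 28693 ± 1085 in the graft (n = 3). Its log2 difference was 3.16 ± 0.53 (edgeR adjusted p = 0.00027), while Trim30a and Trim47 were lower by -2.04 ± 0.56 and -1.87 ± 0.42 (edgeR adjusted p = 0.00757 and 0.00195).

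Likeness was measured across the 25 CD11c-DTR libraries, which span the graft and both segments and differ in transfer and depth. None of these was held constant. The genes were chosen for their direction between the segments in these libraries, so the signs of the correlations among them follow from the choice. On log2(normalized reads + 50), Pearson's r was 0.62 to 0.90 among Elk3, Arid5a, Grap and Ano6 and 0.88 between Nupr1 and Trim16, and it was negative between these sets. Genes most like Elk3 were Lipe (r = 0.96), Slfn5 (0.95) and Plxnd1 (0.95), and those most like Arid5a were Map7d1 (0.94), Fnbp1 (0.93) and Bnip2 (0.92). Grap was nearest to Ccl5 (0.93), Mzb1 (0.92) and Acvrl1 (0.91). Ccl5 is a chemokine of T and natural killer cells, and the study also names it among genes induced as monocytes became ileal macrophages. Mzb1 is a plasma and B-cell gene that is on the B and plasma cell list, and Acvrl1 is an endothelial receptor. Ano6 was nearest to Elk3 (0.90), Hdac7 (0.89) and Cbx6 (0.88). Nupr1 was nearest to Ndufa7 (0.95), Sdhb (0.93) and Smim7 (0.93), of which the first and second encode subunits of the respiratory chain. Trim16 was nearest to Nhlrc2 (0.95), Klf4 (0.95) and Osbpl2 (0.94), where KLF4 is a transcription factor of monocytes and of differentiated epithelium.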

How the data were processed

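The authors mapped 3′-end reads to mm9 with HISAT 0.1.6 and counted them on exons with HOMER; the counts used here are the raw counts they deposited. How molecular identifiers were collapsed is not given in the sources used here. Of the second table, 52 columns that matched no sample label were not used. Counts were tested in R 4.3.3 with edgeR 4.0.16 (TMM scaling, quasi-likelihood test, Benjamini-Hochberg adjustment) over genes with at least 50 normalized reads in 3 libraries, on 25 CD11c-DTR libraries and, for CX3CR1-DTR colon, on 17. DESeq2 1.42.0 and limma 3.58.1 (on log2 of normalized reads + 50) were alternatives. The scripts were tested on simulated data. The 6 genes and the lists were chosen with earlier results of these data known. Named relatives were, of each list, up to 3 genes called in the same direction on days 8 and 12 with the largest mean fold change, and the genes most like a member were taken among those with a mean of at least 200 normalized reads. Levels per marker read were added after seeing the data. Libraries were assigned to transfers by label date. Deviations from group means correlated with a median r of 0.02 (-0.48 to 0.52) in 96 same-transfer pairs of different groups. In 171 pairs of different transfers the median was -0.009 (-0.45 to 0.40). Between groups, libraries of a transfer were thus not seen to deviate together. Pairs within a group were not counted, so the split of ileum day 4 by transfer does not enter these values. With transfer as a replicate block, the genes called from ileum day 4 to day 8 went from 608 to 0 of 11842. Promoters are RefSeq sequences. Figures were drawn with matplotlib 3.10.9.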

Additional observations from a re-analysis of the deposited data

Results flagged for a closer look

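In 30 combinations of a gene and a group of 4 to 6 libraries, the gap of a library to its nearest neighbour was checked. In 5 of them it took up more of the range than Dixon's 95% critical value, where chance gives about 1 in 20. Checks of different genes use the same libraries and are not independent, so these numbers are not compared. Elk3 in ileum day 8 replicate 1 had 602 normalized reads. Arid5a in ileum day 4 replicate 2 had 137 normalized reads. The other 3 were all CX3CR1-DTR library 1, with 498 counts per 10000000 reads on genes for Arid5a, 147 for Grap and 24.5 for Trim16.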

How the results depend on the processing

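The rule for a reversal was set after the alternatives were seen: a tested value had to move by more than 1 SE, and an untested difference had to have a main 95% interval without 0. From day 4 to day 8 in ileum the number of the 6 genes called was 1, but 2 with DESeq2, 5 with ileum day 4 of transfer 1 alone, and 0 with the compared groups alone, with transfer as a replicate block, with ileum day 4 of transfer 2 alone and with transfer 2 alone; leaving out a library gave 0 to 4. With ileum day 4 of transfer 2 alone that step was -0.0106 for Elk3, -0.53 for Grap, 0.14 for Nupr1 and 0.0775 for Trim16. With transfer 2 alone it was -0.70 for Grap, and Arid5a was at 0.53 from colon day 4 to day 8, and Grap at -0.65 and Ano6 at -0.082 from colon day 8 to day 12. With all 4 colon day 8 libraries Arid5a was at 0.95 and -0.50 in these colonic steps, and 21 list genes were called on day 8 in place of 35. Against CD11c-DTR colon, CX3CR1-DTR calls rose from 1 to 2 with RLE, library totals, DESeq2, limma and no filter, and were 1 to 2 without a library. Ileum day 4 of transfer 1 alone gave -0.0308 for Grap against the graft. Per pan-leukocyte read, colon minus ileum reversed for Elk3 (0.41 on day 4, 0.35 on day 12), Arid5a (0.41, 0.17 and 0.94) and Ano6 (0.27 on day 8, 0.85 on day 12); per macrophage read, for Elk3 (0.11 on day 4), Arid5a (0.32, 0.23 and 0.57) and Ano6 (0.36 and 0.50); per epithelial read, for Nupr1 on day 8 (-0.32). Sign changes that this rule does not count were Ano6 on day 4 per pan-leukocyte (1.59) and macrophage read (1.39), Trim16 on day 4 per epithelial read (-0.24) and with transfer 1 alone (-0.15), and, from graft to ileum day 4, at least 1 alternative for each gene but Grap. The causes were not tested. Depth limits Grap most, where 3 reads make up 3.51 to 27.6 normalized reads.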
